A study of Drosophila melanogaster with 5 samples.

Results

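H3K18ac peaks that lay wholly upstream of a transcription start and were lower in etomoxir-treated wing discs are described here. They were taken from the authors' table of listed Cut&Run peaks and were chosen by 3 entries of each row, namely the annotation Promoter, a signed distance to the start below 0 and a group concentration lower in etomoxir than in control discs. The rule found 461 peaks of the 2626 listed, assigned to 400 genes. The wing disc is the larval epithelium that forms the adult wing and notum. All discs came from larvae of the third instar with genotype [w1118], male and female together. The etomoxir group held 2 libraries of discs kept for 2 h in explant culture with 500 µM etomoxir. The control group held 3 libraries, of which 2 came from discs in drug-free culture for 2 h and 1 from discs that were dissected directly. Etomoxir blocks the import of long-chain fatty acids into mitochondria and thereby fatty acid β-oxidation (FABO). The comparison sets discs with blocked FABO against discs without the drug, peak by peak. Because 1 of the 3 control libraries was never cultured, part of the effect of culture cannot be told apart from that of the drug.

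Acetylation of histone H3 at lysine 18 is placed mainly by CBP/p300 acetyltransferases, which draw on acetyl-CoA. The mark is found at active promoters and enhancers. In the compact fly genome, the sequence just upstream of a start often holds both the core promoter and nearby enhancers, and many developmental genes have several starts. A peak assigned to one start can therefore lie inside the transcription unit of the same gene.

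Each value below is a concentration, which is the log2 of the mean normalised read count of the peak over the libraries of a group. A difference is the etomoxir minus the control concentration, so that -1 stands for a 2-fold lower normalised count in etomoxir discs. The zero of this difference depends on how the authors scaled the libraries. The part of that scaling in which peaks count as lower was not tested. The table gives group means and no value per library. No spread between replicates can therefore be given, and no test could be fitted anew. The authors' own test per peak chose the listed peaks and is not used here, so sizes are stated as descriptions. The concentration over all libraries equalled the mean of 3 control and 2 etomoxir libraries within 0.02 at 100% of listed peaks. The number of reads per library is not in the table, and the study's own summary of its libraries shows 1 cultured control with far more unique reads than the others, whose part in these values was not tested. Peaks that the authors did not list were not analysed here.

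Members were counted in 3 distance classes, measured from the near edge of the peak to the start. There were 269 members within 1 kb, at 255 genes. A further 116 lay at 1 to 2 kb, at 114 genes, and 76 at 2 to 3 kb, at 75 genes. The nearest edge lay within 100 bases of the start for 72 members (15.6%) and within 250 bases for 120 (26%). Of all 522 listed peaks upstream of a start in promoters, the 461 members made up 88.3%. The share lower in etomoxir discs was 83.5% over all listed peaks, 79.9% over promoter peaks, 73.4% over promoter peaks that covered a start and 80.7% over those downstream of one. The rule used this same contrast, so these shares describe the list and nothing is read from them. By class, 89.7%, 85.9% and 87.4% of upstream peaks were lower, in order of distance.

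**Figure D1:**
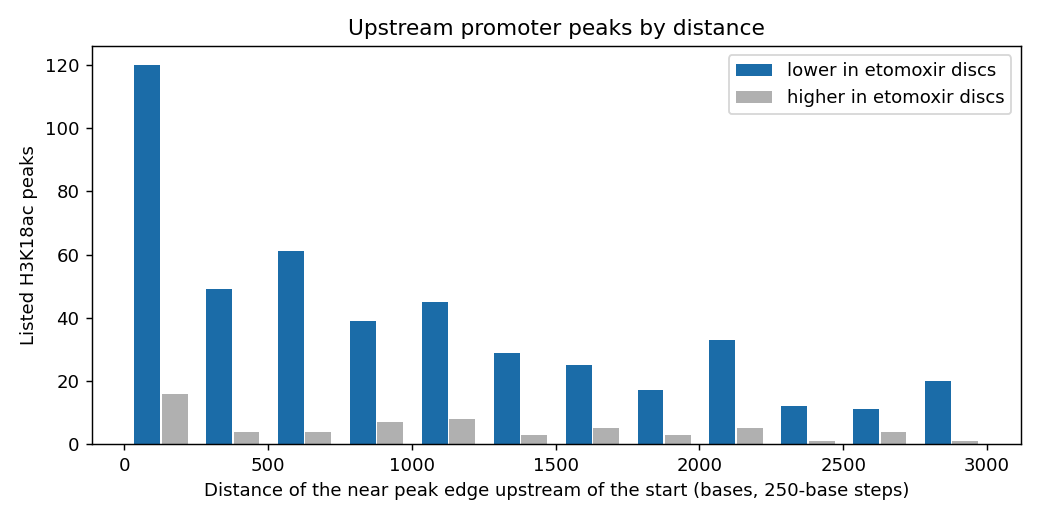
Number of listed H3K18ac peaks upstream of a start (y axis) in 250-base steps of distance from the start (x axis, bases), for peaks lower and peaks higher in etomoxir discs. The first step holds 120 lower and 16 higher peaks, and every step holds more lower than higher peaks.

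The 3 classes differed little in level. The median member had a concentration of 5.14 in etomoxir discs and 6.44 in control discs, which is 35.3 and 86.8 normalised reads, and a difference of -1.26. The median difference was -1.26 in the nearest class, -1.23 at 1 to 2 kb and -1.26 at 2 to 3 kb. The quartiles of the difference were -1.67 and -1.01, and 349 members (75.7%) were at -1 or lower. Of these, 49 (10.6% of all) were at -2 or lower. Median width was 769 bases in the nearest class, 797 bases at 1 to 2 kb and 863.5 bases at 2 to 3 kb, and the narrowest member of all was 256 bases and the widest 3373 bases.

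**Figure D2:**
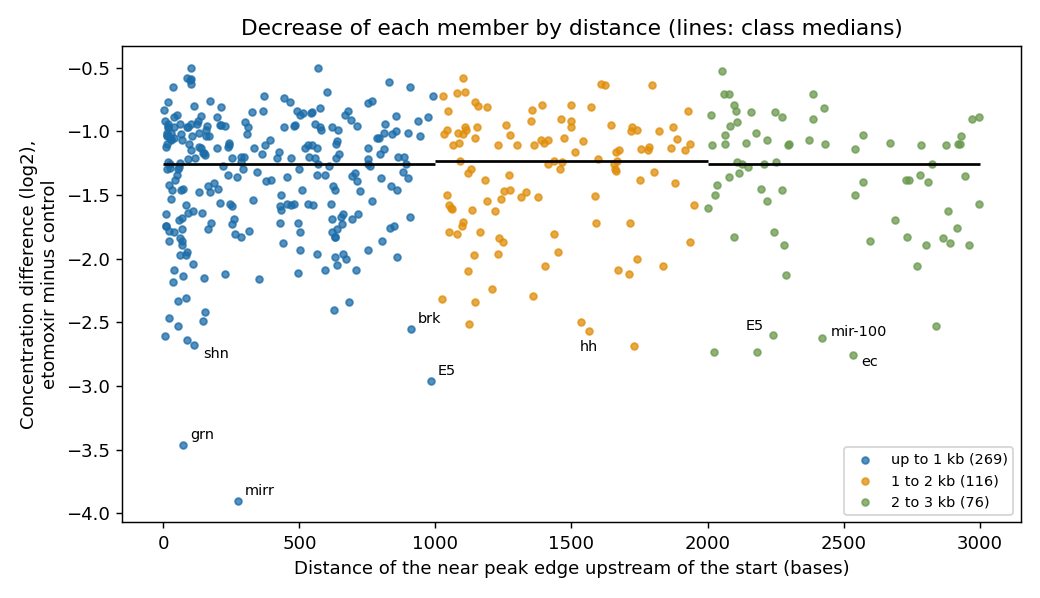
Concentration difference of each of the 461 members (y axis, log2, etomoxir minus control) against its distance upstream of the start (x axis, bases), 1 point per peak and a line at the median of each class. Class medians lie between -1.26 and -1.23, and mirr (-3.90) and grn (-3.46) lie below all other members.

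At the limits of the rule, the members nearest to no difference were at Msp300 and Cam, both at -0.50. The upstream peaks nearest to it on the other side were at lncRNA:CR44131 (0.43) and cta (0.56). The members closest to a start ended 4 bases before it at Pkn and 7 bases before it at NK7.1. The farthest, 2998 bases upstream, were at Tet and lncRNA:CR46039, and the first lower peaks beyond the promoter limit lay 3011 bases upstream of vn and 3027 bases upstream of Mnt. Peaks at dpp and NijA whose edge reached the start base itself were counted as covering a start and are not members.

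The sequences of 6 members are shown because they stand upstream of genes with the largest decreases and differ in the word GAGAG, the binding word of GAGA factor, which is described further on. Each is the central 200 bases of the peak in build dm6, read from the NCBI Release 6 genome in the direction of the gene, with no annotated exon inside. GAGAG and its reverse complement CTCTC are in capitals. The window upstream of mirr is chr3L:12693006-12693205 on the plus strand, that of grn is chr3R:8181752-8181951 on the minus strand, and that of E5 is chr3R:13876037-13876236 on the minus strand. The window of brk is chrX:7306568-7306767 on the plus strand, that of the peak 54 bases upstream of hh is chr3R:23142111-23142310 on the minus strand, and that of ec is chrX:3833107-3833306 on the plus strand.
mirr: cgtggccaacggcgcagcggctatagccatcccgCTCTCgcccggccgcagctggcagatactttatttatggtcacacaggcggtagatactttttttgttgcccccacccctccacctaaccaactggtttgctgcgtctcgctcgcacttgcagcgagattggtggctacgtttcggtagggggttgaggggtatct
grn: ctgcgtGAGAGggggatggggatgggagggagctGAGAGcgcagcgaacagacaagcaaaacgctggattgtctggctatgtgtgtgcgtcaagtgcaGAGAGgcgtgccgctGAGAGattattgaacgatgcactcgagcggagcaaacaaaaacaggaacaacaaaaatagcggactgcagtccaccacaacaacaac
E5: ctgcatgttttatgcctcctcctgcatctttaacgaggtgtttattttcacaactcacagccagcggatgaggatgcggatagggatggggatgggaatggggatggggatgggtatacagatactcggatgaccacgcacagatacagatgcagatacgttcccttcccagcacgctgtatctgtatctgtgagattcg
brk: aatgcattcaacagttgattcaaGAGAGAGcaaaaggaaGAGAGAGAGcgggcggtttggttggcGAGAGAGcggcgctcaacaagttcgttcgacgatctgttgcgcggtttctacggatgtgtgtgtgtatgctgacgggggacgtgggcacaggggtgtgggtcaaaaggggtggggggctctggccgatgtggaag
hh: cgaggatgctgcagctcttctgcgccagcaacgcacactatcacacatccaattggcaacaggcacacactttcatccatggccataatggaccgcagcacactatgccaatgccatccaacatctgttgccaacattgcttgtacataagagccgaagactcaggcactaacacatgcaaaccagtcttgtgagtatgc
ec: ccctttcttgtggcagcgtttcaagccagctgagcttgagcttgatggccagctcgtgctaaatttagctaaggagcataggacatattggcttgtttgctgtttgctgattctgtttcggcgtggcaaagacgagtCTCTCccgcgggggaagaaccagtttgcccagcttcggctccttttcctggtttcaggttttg
The word occurs 7 times in the brk window, counting overlaps, 4 times in the grn window and 1 time in each of the mirr and ec windows. The E5 and hh windows have none.

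The largest decrease was upstream of mirr, which encodes an Iroquois homeodomain protein of the dorsal eye and the notum. The peak lies at chr3L:12692848-12693365, 274 bases before the start and between genes. Its concentration was 2.11 in etomoxir discs and 6.01 in control discs, or 4.3 and 64.4 normalised reads, which is 14.9-fold lower. A further mirr member, 2739 bases upstream, had 4.62 in etomoxir discs and 6.0 in control discs, a difference of -1.38. So 2 peaks upstream of the same start differed in the size of their decrease.

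The next largest decrease belonged to grn, the gene of the GATA factor Grain, at chr3R:8181517-8182188 and 73 bases before the start. Etomoxir discs had 2.46 and control discs 5.92, which is 5.5 and 60.5 normalised reads. E5, a homeobox gene related to ems, had 2.38 in etomoxir discs and 5.34 in control discs at 982 bases upstream, and 3.01 in etomoxir discs and 5.61 in control discs at 2241 bases upstream. For these members the etomoxir mean was a few reads per library, so their fold change rests on low counts. In all, 52 members had an etomoxir concentration under 4.

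The other members among the 10 largest decreases within 1 kb were at shn (-2.68), lncRNA:CR45916 (-2.64), CG42507 (-2.61), brk (-2.55), hh (-2.53), spri (-2.49) and chn (-2.47). Shn is a zinc finger protein of the Dpp response, spri encodes a Ras effector of the RIN family and chn a zinc finger repressor of neural genes. The peaks assigned to CG42507 and brk have their centre inside another gene.

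Between 1 and 2 kb the 5 largest decreases were at CG33798 (-2.69), hh (-2.57), E(spl)malpha-BFM (-2.51), CG6163 (-2.5) and chinmo (-2.34). Chinmo is a BTB zinc finger protein that keeps cells in a juvenile state. CG6163 also had a peak covering its start, at 5.54 in etomoxir discs and 6.59 in control discs, and 3 further lower peaks between genes.

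Between 2 and 3 kb they were at ec (-2.76), sob (-2.73), Tango8 (-2.73), mir-100 (-2.62) and E5 (-2.60). Sob is a zinc finger protein of the Odd-skipped family, ec (echinus) is needed for the removal of surplus cells in the pupal eye, and mir-100 is a microRNA gene clustered with let-7. The ec member had 4.54 in etomoxir discs and 7.30 in control discs and lies inside the ec transcription unit. The members assigned to Tango8 and mir-100 have their centre inside another gene. Members with decreases of this size thus stood in every distance class.

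Among the 5 members with the highest control concentration, the decrease was smaller than the median member's at 4. Ssk, a septate junction protein of the gut, had 8.22 in etomoxir discs and 8.82 in control discs. The mtSSB gene, for the mitochondrial single-stranded DNA binding protein, was the exception, with 6.98 in etomoxir discs and 8.70 in control discs, a difference of -1.72. Irk1, a potassium channel gene, was at -1.08, CG9205 at -1.11 and gish, for a casein kinase, at -0.77. With the members split into 4 equal groups by control concentration, from low to high, the median difference was -1.4, -1.2, -1.25 and -1.16. The control concentration is part of the difference and of the authors' choice of listed peaks, so this order is a description only.

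Genes of developmental pathways were set out from lists of named regulators. Of 149 genes on the 9 developmental lists, 31 (20.8%) had a member and 72 (48.3%) had a lower listed peak anywhere. Over all 13986 protein-coding genes of the annotation, 2.2% had a member and 7.89% had a lower peak. That total takes in genes whatever their expression in the disc or their number of starts. The part of either in these shares was not tested. None of the 149 had a higher listed peak, beside 2.01% of all protein-coding genes. The 42 members at these genes had a median difference of -1.77, beside -1.26 over all members, and 36 of them lay below that overall median. The lists were drawn up with earlier results of these data known, so these shares are counts and not support for a theme.

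**Figure D3:**
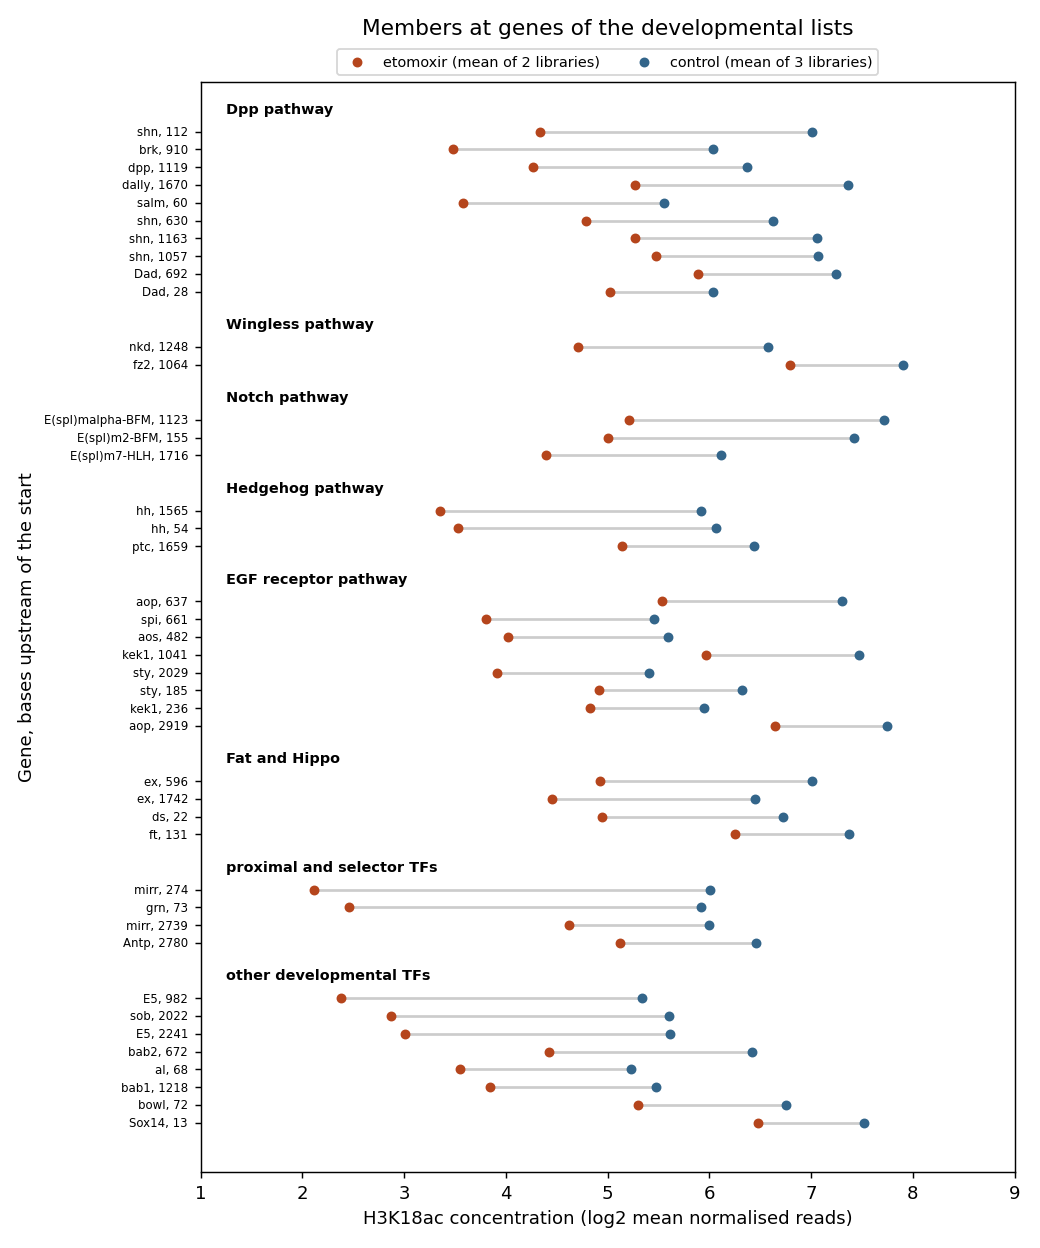
Concentration (x axis, log2 mean normalised reads) in etomoxir discs and control discs for the 42 members at genes of the developmental lists, 1 line per peak, with the gene and the distance upstream in bases on the y axis. All points are group means without a spread, and the lowest etomoxir values are 2.11 at mirr, 2.38 at E5 and 2.46 at grn.

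In the Dpp pathway, the BMP signal that patterns the wing along its anterior-posterior axis, 6 of 18 genes had 10 members. The ligand gene dpp had a member 1119 bases upstream with 4.27 in etomoxir discs and 6.37 in control discs, and 4 lower peaks covering dpp starts had smaller differences, of -0.99 to -1.42. Dally, a glypican that carries Dpp along the epithelium, had a member at 1670 bases with 5.27 in etomoxir discs and 7.36 in control discs. The repressor gene brk, which Dpp signalling keeps off, had 3.48 in etomoxir discs and 6.03 in control discs at chrX:7306308-7307029. The target gene salm had 3.58 in etomoxir discs and 5.55 in control discs at 60 bases, and Dad, the inhibitory Smad, had members at -1.35 and -1.01. The receptor gene tkv had lower peaks but none upstream within a promoter. Of the 10 members, 9 lay below the overall median.

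The gene shn, which encodes the cofactor that represses brk, alone held 4 members. They were at -2.68, -1.83, -1.79 and -1.60, assigned to 3 transcripts and all within the shn transcription unit. A further 3 lower peaks lay downstream of shn starts within promoters.

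In the Hedgehog pathway, hh, the ligand gene expressed in posterior cells, had members 54 and 1565 bases upstream. The nearer had 3.53 in etomoxir discs and 6.06 in control discs, and the farther had 3.35 in etomoxir discs and 5.92 in control discs. The members of hh were alike in level and in difference. Ptc, the Hedgehog receptor, had 5.14 in etomoxir discs and 6.44 in control discs at 1659 bases, close to the median member. Lower peaks of ci, the pathway's transcription factor, and of en, the posterior selector, lay on a start or outside promoters. Of 11 genes, 6 had a lower listed peak anywhere and 2 had a member.

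In the Notch pathway, members stood at 3 of 20 genes, all in the Enhancer of split complex of Notch targets on 3R. E(spl)malpha-BFM, of the Bearded family, had 5.21 in etomoxir discs and 7.72 in control discs at 1123 bases. E(spl)m2-BFM, of the same family, had 5.0 in etomoxir discs and 7.42 in control discs at 155 bases. The centre of this peak lies in an exon of another gene. The helix-loop-helix repressor gene E(spl)m7-HLH had 4.39 in etomoxir discs and 6.11 in control discs at 1716 bases. The Notch receptor gene N and the ligand genes Delta and Ser had lower peaks too, none of them upstream within a promoter.

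In the EGF receptor pathway 5 of 11 genes had 8 members, the largest share of genes among the lists. Spi, the ligand, had 3.80 in etomoxir discs and 5.45 in control discs at 661 bases. The other genes encode inhibitors. The secreted inhibitor gene aos was at -1.57, the ETS repressor gene aop at -1.77 and -1.10, sty, for the feedback inhibitor Sprouty, at -1.5 and -1.41, and kek1, for a transmembrane inhibitor, at -1.5 and -1.12. The aos member has its centre inside another gene. Egfr itself had lower peaks only outside promoters. In the Wingless pathway 2 of 19 genes had a member, nkd, a feedback inhibitor, at -1.87 and fz2, a receptor, at -1.11.

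In the Fat and Hippo list 3 of 14 genes had 4 members. Ex, for an upstream regulator of Hippo signalling at the apical membrane, had 4.92 in etomoxir discs and 7.01 in control discs at 596 bases, and 4.45 in etomoxir discs and 6.45 in control discs at 1742 bases. The atypical cadherin genes ds and ft, whose proteins bind each other between cells, were at -1.78 and -1.12. The ex members were the larger of these decreases.

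Among proximal and selector transcription factors 3 of 18 genes had a member, mirr, grn and Antp, the Hox gene of the thorax, at -1.34. A lower listed peak anywhere was found at 12 of the 18. Among the other developmental factors 7 of 29 had a member. Besides E5 and sob they were bab2 (-2.0) and bab1 (-1.63), paired BTB factors of leg and abdomen patterning, al (-1.68), a homeobox gene of distal appendages, bowl (-1.45), an Odd-skipped relative, and Sox14 (-1.04), an ecdysone-induced factor. None of the 9 proneural and bristle genes had a member, while 3 had lower peaks elsewhere, beside 2.2% and 7.89% of all protein-coding genes.

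Other lists were smaller. Among ecdysone response genes Eip74EF had 4.72 in etomoxir discs and 6.71 in control discs at 857 bases and a weaker member at -0.93, and br was at -1.13, in all 2 of 13 genes. Among junction and polarity genes 1 of 16, pyd, the ZO-1 relative, had members at -1.30 and -0.97. Among chromatin regulators 4 of 19 had members. They were Tet, tou (-1.46 and -1.15), psq (-1.62), which encodes a BTB protein that binds GAGA sequences, and ph-d (-0.88), of the Polycomb complex. None of the 11 genes for fatty acid oxidation and acetyl-CoA had a member, beside 2.2% of all protein-coding genes. With so few genes nothing is read from this count. AcCoAS, the acetyl-CoA synthase gene, had a lower peak covering a start. The list does not hold Acsl, described further on, or ACC, the gene of the acetyl-CoA carboxylase that starts fatty acid synthesis. ACC, named after its values were seen, had a member 207 bases upstream, with 5.55 in etomoxir discs and 6.5 in control discs. Of 92 ribosomal protein genes 1 had a member, RpS23 at -0.86. A higher listed peak was found at 6 of them, beside the 2.01% of all protein-coding genes given above. They were RpL5, RpL15, RpL21, RpL38, RpLP0 and RpS3A. The part of their chromosomal location in this count was not tested.

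Markers of cell types were read in the same way, since discs can carry other tissues. Of 6 wing disc markers 4 had a lower peak and 1, ptc, a member. Of 7 myoblast markers, kirre had a member, with 5.11 in etomoxir discs and 6.17 in control discs, and 3 had a lower peak. Of 4 tracheal markers 2 had lower peaks and none a member, and of 5 haemocyte markers none was listed. Over all protein-coding genes 2.2% had a member and 7.89% a lower peak, so absences in lists this short are not read. A change in the share of cell types and a change in the mark within cells cannot be told apart in whole discs, and the part of either in the members was not tested.

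Most genes had a single member. There were 349 such genes, 44 with 2 members and 7 with 3 or more, which were CG43658 with 5, shn with 4, and ec, dsx, Tet, Acsl and pico with 3. Each of shn, ec, Tet, Acsl and pico had all its members inside its own transcription unit. CG43658 had members from -2.04 to -0.63. The members of dsx, the sex determination factor, lay at 494, 766 and 1436 bases and were at -2.11, -1.55 and -1.81.

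Tet, the gene of the TET family protein, had 3 members before 1 start, at 9, 2002 and 2998 bases. In this order they had 4.14, 4.25 and 5.01 in etomoxir discs and 5.79, 5.85 and 6.58 in control discs. Their differences lay close together, at -1.65, -1.6 and -1.57. Tet also had 5 lower peaks outside promoters. Pico, for an adaptor protein of the cytoskeleton, had members at -1.42, -1.04 and -0.99.

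Acsl encodes a long-chain acyl-CoA synthetase, the enzyme that activates fatty acids. Its members had 4.45 in etomoxir discs and 5.98 in control discs at 30 bases, 4.81 in etomoxir discs and 6.15 in control discs at 239 bases, and 5.40 in etomoxir discs and 6.32 in control discs at 1499 bases. Acsl was also the only gene with a member that had a listed peak in the other direction, in an intron, with 6.87 in etomoxir discs and 6.07 in control discs. A single gene thus held peaks of both directions.

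A feature that the rule did not use was where the peaks lay in the annotation. The centre of 137 members (29.7%) lay inside the span of the very gene whose start it preceded, that of 103 (22.3%) lay inside another gene only, and that of 221 (47.9%) lay between genes. By definition, a peak of the 137 has another annotated start of the same gene farther upstream. An exon held 33 of the centres (7.16%). Of the lower promoter peaks covering a start, 57.1% had their centre in their own gene and 28% between genes, and of the lower peaks downstream of a start, 71% and 16.4%. Position relative to the start fixes part of this difference.

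**Figure D4:**
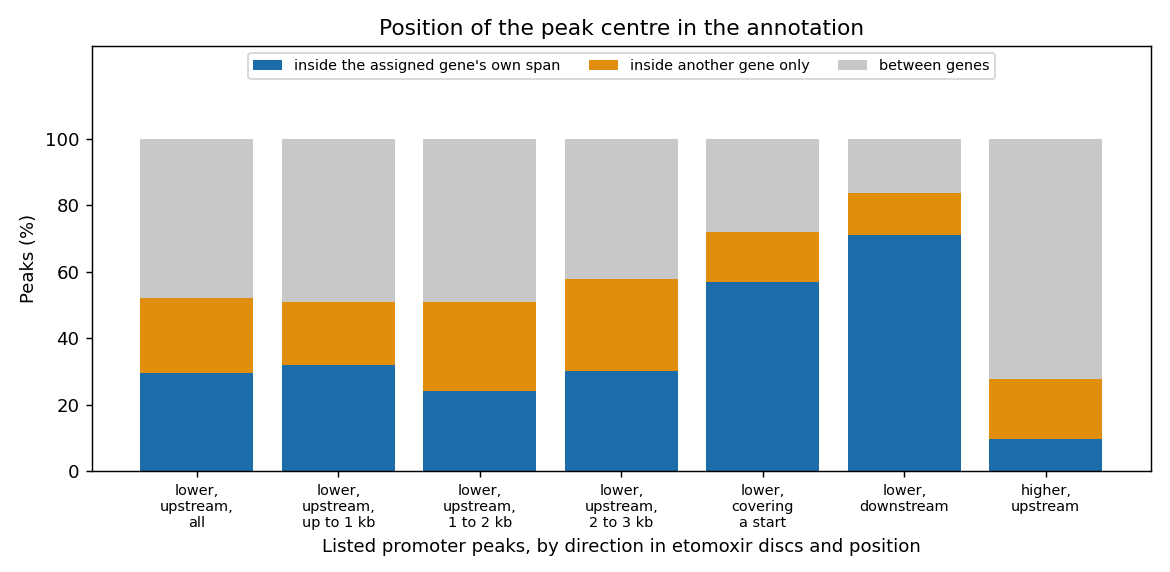
Share of listed promoter peaks (y axis, %) whose centre lay inside the assigned gene's span, inside another gene only, or between genes, for 7 sets of peaks (x axis). Among lower upstream peaks 29.7% lay in their own gene and 47.9% between genes, and among higher upstream peaks 72.1% lay between genes.

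Decreases were similar in the 3 settings, with median differences of -1.22 in the own gene, -1.24 in another gene and -1.3 between genes. Members between genes were lower in level, with medians of 5.01 in etomoxir discs and 6.35 in control discs. Of the 400 genes, 307 were protein-coding, 88 were non-coding RNA genes and 1 was a pseudogene, and 4 identifiers were not matched. Genes annotated as ncRNA held 87 of the 461 members, mir-100 among them with 2, beside 474 of the 2626 listed peaks.

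Most genes had no listed peak on the start itself. Of the 400 genes, 236 (59%) had no other listed peak at all, 55 had a lower peak covering a start and 52 had one downstream of a start within a promoter. At the 55 genes with both, the largest decrease of the upstream peaks exceeded that of the covering peaks in 32, was smaller in 22 and was equal in 1. The median over these genes was -1.31 upstream and -1.30 on the start. Another listed peak lay within 1000 bases of 122 members (26.5%). Such counts were not made for the other listed peaks, so nothing particular to the members is read from them.

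The base composition of the members was close to that of other lower peaks. Median GC content was 45.3% in members, 44.7% in lower peaks covering a start, 45.5% in those downstream and 36.2% in the 61 higher upstream peaks. On the arms, 118 members were on 3R, 101 on 2L, 99 on 3L, 73 on X and 69 on 2R, and 1 was on chromosome 4. Of 2626 listed peaks, 569 were on 3R, 482 on 2L, 556 on 3L, 385 on X, 567 on 2R and 67 on chromosome 4. Of the 61 higher upstream peaks, 22 were on 2R and 9 on chromosome 4, against 69 and 1 of the 461 members. Of the 67 listed peaks on chromosome 4, 12 were lower in etomoxir discs. The part of chromosomal location in the GC content of the higher upstream peaks, or in their position relative to genes, was not tested.

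The central 300 bases of each peak were searched on both strands for 11 short words, none of which contains another. GAGAG was in 50.1% of the members, 47% of lower peaks covering a start, 41.6% of those downstream, 40.5% of lower peaks outside promoters and 26.2% of higher upstream peaks. It was in 33.1% of the windows from 250 bases before to 50 after the 19253 protein-coding starts. It was in 28.4% of the 300-base windows that begin 600 bases before those starts and in 30.1% of those that begin 1500 bases before them. By class the share was 52% up to 1 kb, 49.1% at 1 to 2 kb and 44.7% at 2 to 3 kb. Members with the word had a median difference of -1.34 and those without it -1.15. Those with the word were also lower in level, with a median control concentration of 6.35 against 6.57. An etomoxir concentration under 4 was found at 34 members with the word and 18 without it. The rule used the difference itself, so this is a description only. Of the members in their own gene 58.4% held the word, and of those in another gene or between genes 46.6% each. A match is a stretch of letters and not a bound site.

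The other words are given for the members beside 3 sets of windows at all protein-coding starts, those around the start, those that begin 600 bases before it and those that begin 1500 bases before it. TATAAA, the TATA box, was in 24.1% of members, against 42.2% around the start, 36.4% from 600 bases and 28.7% from 1500 bases. It was in 24.5% of lower peaks covering a start, 22% of those downstream and 41% of higher upstream peaks. TATCGATA, the word of DREF at housekeeping promoters, was in 0.434% of members, against 7.98%, 2.57% and 1.11% of the 3 sets in the same order. Shares for both words thus fell nearer to the members' the farther the windows lay from the start. GATAAG was in 12.4% of members, against 18.5%, 14.7% and 13.3%, and GCCAT was in 46%, against 41%, 42.6% and 47.9%. CAGGTA was in 9.11%, against 6.38%, 6.98% and 8%, and GGAATG in 14.1%, against 11.1%, 12.4% and 13.7%. For these 4 words the windows from 1500 bases were within 2 percentage points of the members. GTGGGAA was in 4.77% of members, against 3.74%, 3.65% and 3.69%, and TGACAG in 9.54%, against 11.8%, 9.18% and 9.41%. GGCGCC was in 3.25%, against 4.6%, 4.91% and 6.04%, and CACGTG in 3.04%, against 4.01%, 3.73% and 3.99%. Windows differed in GC content as well, with medians of 46% in members and 39.3%, 40.3% and 43.7% in the 3 sets. The part of GC content, chromosomal location or distance from the start in any of these shares, that of GAGAG included, was not tested.

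**Figure D5:**
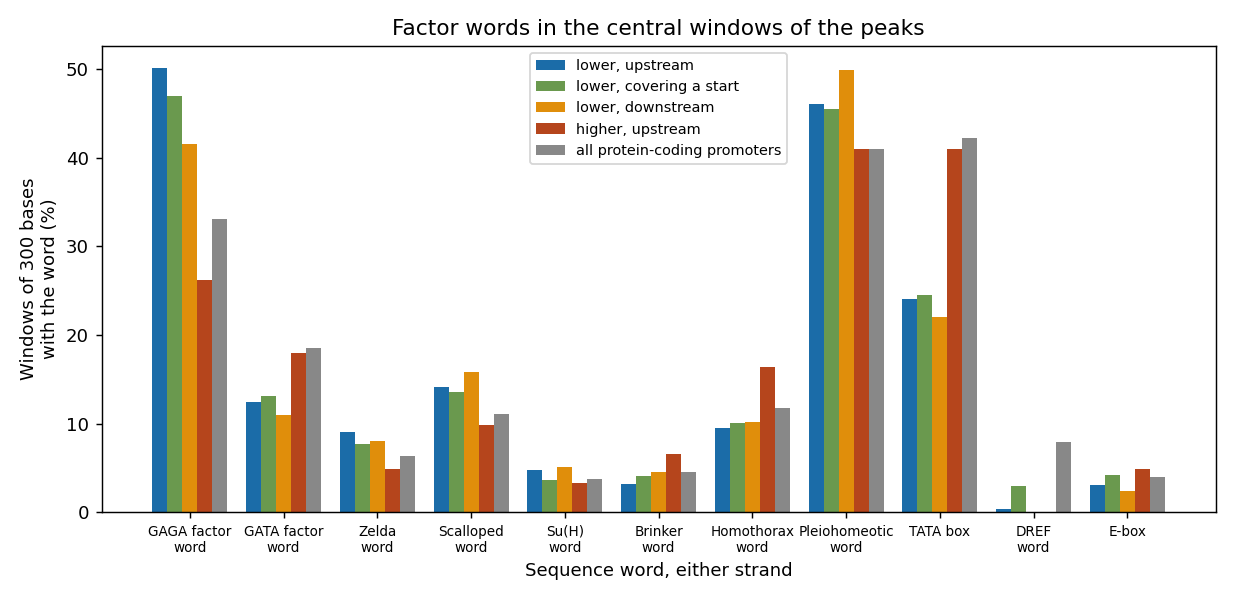
Share of 300-base windows (y axis, %) that hold each of 11 words on either strand (x axis, by the factor or element it is named for), for lower upstream, covering and downstream peaks, higher upstream peaks and all protein-coding promoters. The GAGA factor word is in 50.1% of lower upstream peaks and 33.1% of all promoters, and the promoter windows contain the start, which the members do not.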

How the data were processed

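H3K18ac was profiled by Cut&Run, in which a nuclease tethered to an antibody releases DNA fragments for sequencing, in 2 etomoxir and 3 control libraries. The authors trimmed reads with Trim Galore 0.6.3, aligned them to dm6 with Bowtie2 2.4.2, removed duplicates, called peaks with MACS2 2.1.1.20160309.6, used DiffBind 2.10.0 for the group comparison and assigned peaks to starts with ChIPseeker 1.18.0. Yeast spike-in DNA was added, and whether it scaled the libraries is not stated in the sources used here.

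The deposited concentrations are log2 values made by the authors, as group means of normalised read counts. The deposited fold change, p-value and FDR columns hold the authors' own comparison and were not used. Depth is unknown from the table, and no counting interval is given. The signed distance to the start was deposited by the authors and was recomputed with the same value at 100% of peaks, with 1-based starts.

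Members were selected by the stated rule, and differences, medians and shares were computed in Python 3.11.15 (pandas 2.3.3, numpy 2.4.6 and scipy 1.17.1), with figures drawn in matplotlib 3.10.9. Genes were matched to Ensembl release 115 (BDGP version 6.54, dm6 coordinates), with 99.1% of members matched by gene identifier. Words were searched in the central 300 bases, and the search and the distances were tested on simulated data. No test was fitted, because each group has 1 value per peak. The members and lists were chosen with earlier results of these data known.

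Genes were named by rule: those of the 10 members with the largest decrease within 1 kb and of the 5 in each farther class, those of the 5 with the highest control concentration, those with 3 or more members, and list genes with a member. Genes at the limits of the rule, ACC and list genes without a member were named after their values were seen. Alternatives covered the peak centre, other start sites, narrower promoters, larger decreases, merged peaks, low values and other windows.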

Additional observations from a re-analysis of the deposited data

How the results depend on the processing

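With the position of the peak centre in place of its near edge, 755 peaks at 662 genes were lower and upstream, 461 of them up to 1 kb and 178 at 1 to 2 kb, with a median difference of -1.14, since peaks that overlap a start then enter. The 755 hold all 461 members by definition, since a peak wholly upstream of a start has its centre upstream too. The 461 peaks up to 1 kb by centre are a different set. Limiting promoters to 1 kb left 269 members at 255 genes. Keeping a difference of -1.5 or lower left 157 members at 135 genes, with 92, 40 and 25 members by distance. Requiring an etomoxir concentration of 4 or more gave a median of -1.18. Among upstream promoter peaks with an absolute difference of 1 or more, 91.6% were lower. No share at this limit is given for other listed peaks, so nothing particular to upstream peaks is read from it. GAGAG was in 39.9% of central 200-base and 64.4% of central 500-base windows, against 25.4% and 44.7% of promoter windows of those lengths. The other alternatives kept their counts within 1.5 times, and their medians of the difference lay between -1.26 and -1.2. With the start sites of the Ensembl annotation 459 of the 461 members were found again. No paired analysis was possible because the table gives group means, not a value per library, and leaving out single libraries could not be done for the same reason. The precision of members with few etomoxir reads is therefore not known.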
